A study of Homo sapiens with 8 samples.

Results

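The early response to knockdown of the RUNX1/ETO fusion transcript was described from the 48 h and 96 h arrays of a knockdown course in Kasumi-1 cells. Kasumi-1, a standard human cell line of acute myeloid leukaemia, carries the t(8;21) translocation, so every group below has the fusion gene. The cells had been electroporated once with 200 nM of an siRNA against RUNX1/ETO (siRE), or of siMM, its mismatch control, and total RNA was read on Illumina bead arrays as biotin-labelled cRNA. The 4 arrays were 1 siMM and 1 siRE array at each of 48 and 96 h, chosen by siRNA and time from the labels, out of 8 arrays in all. The other 4, at 168 and 240 h after 2 and 3 electroporations, served to estimate the spread and for comparison. Of 47230 probes in the table, 14707 exceeded a background cut-off of 5.90 on at least 2 of the 8 arrays and were tested, and 13320 of these did so on at least 2 of the 4 early arrays. No time had a replicate of its own, only 1 cell line was used, and nothing in the labels says that the arrays came from separate cultures, so p-values reflect only the spread among these arrays.

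RUNX1 is a DNA-binding transcription factor of blood cell development, and ETO, the product of RUNX1T1, is a corepressor. The fusion protein keeps the DNA-binding part of RUNX1 and recruits repressor complexes through its ETO part, and it is known to hold myeloid blasts at an immature stage. Genes of granule proteins, myeloid surface receptors and the C/EBP transcription factors mark the maturation of granulocytes and monocytes, while CD34 and related genes mark immature cells. Levels are given as the authors' normalized log values and read here as log2. The sources used here do not state whether the scale is plain log2 or variance-stabilised, and folds hold only for plain log2. These are bulk values, in which more or fewer cells of a kind cannot be told apart from more or less RNA per cell.

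One of the 2 tested RUNX1T1 probes was lower with siRE at both early times. The brightest RUNX1T1 probe (ILMN_1812795) measured 8.86 and 9.23 in siMM at 48 and 96 h, and 7.52 and 7.81 in siRE. Both siRE arrays lay below both siMM arrays, with 39.6% of the control signal left at 48 h and 37.2% at 96 h. The early effect, the mean of the siRE minus siMM differences at 48 and 96 h, was -1.38 ± 0.17 (SE, limma adjusted p = 0.00677). Each early effect rests on 2 pairs of arrays, while its SE, here and below, comes from the fit of all 8 arrays. The second tested RUNX1T1 probe (ILMN_1724669) measured 5.33 and 5.73 in siMM and 5.38 and 6.08 in siRE. Only the 96 h siRE array exceeded the cut-off of 5.90, and the difference was 0.20 (limma adjusted p = 0.864). RUNX1 (ILMN_1801504) measured 8.47 and 8.89 in siMM and 8.35 and 8.01 in siRE. Its difference was -0.12 at 48 h and -0.89 at 96 h and did not pass the test (limma adjusted p = 0.537). The sources used here do not state which transcripts each probe reads, fusion or normal.

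The first question was which transcripts differed between siRE and siMM within 4 days. At an adjusted p under 0.05 (limma, Benjamini-Hochberg over all tested probes), 99 probes were higher with siRE (0.673% of those tested) and 33 were lower (0.224%). At an unadjusted p under 0.05, 707 were higher and 585 lower. Taking 1 probe for each of 8866 genes, 65 genes were higher (0.733%) and 26 lower (0.293%). At the level of single times, with 1 array against 1 and no test, 87 probes were at least 2-fold higher (0.592%) and 40 at least 2-fold lower (0.272%) at 48 h, against 169 (1.15%) and 82 (0.558%) at 96 h. At both times, 63 were at least 2-fold higher (0.428%) and 19 at least 2-fold lower (0.129%). The control itself moved between the times: 98 probes were at least 2-fold higher and 23 at least 2-fold lower at 96 h than at 48 h within siMM. The counts depend on the estimate of the spread. They were 193 higher and 105 lower with the 4 early arrays alone, 39 and 10 without pairing by time, and 5 and 0 with dim values raised to the cut-off. Without the 48 h pair 27 probes were higher and 3 lower, and without the 96 h pair 2 and 0, where each estimate rests on 1 array against 1 and the spread comes from the late arrays; of the 91 genes, 22 and 2 then kept their call.

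Of the 3 genes that rose most, 2 encode granule proteins and 1 a membrane protein. PRG2, the eosinophil granule major basic protein, measured 5.70 and 5.98 in siMM at 48 and 96 h, and 9.93 and 10.57 in siRE. It was thus near the background cut-off in the control and far above it in both knockdown arrays, a rise of 4.41 ± 0.26 (SE, limma adjusted p = 0.000144) that corresponds to 21.2-fold. MS4A3, a membrane protein of granulocyte and monocyte progenitors, measured 6.67 and 6.55 in siMM, and 9.87 and 11.67 in siRE. It rose by 4.16 ± 0.35 (SE, limma adjusted p = 0.00119), or 17.8-fold, and all 3 of its tested probes passed, the weakest at 1.84. PRG2 and MS4A3 were the 2 called genes that kept their call when the 96 h pair was left out, with the spread taken from the late arrays. BPI, a bactericidal protein of neutrophil granules, measured 5.95 and 5.74 in siMM, and 7.55 and 10.72 in siRE. Its difference grew from 1.60 at 48 h to 4.99 at 96 h, and the early effect of 3.29 ± 0.56 (SE, limma adjusted p = 0.027) lost its call with a robust prior that follows intensity, without pairing by time, and with dim values raised to the cut-off.

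Other granule genes rose from levels already above background in the control, though CST7 lay close to the cut-off at 48 h. SRGN, serglycin, the proteoglycan core of secretory granules, measured 9.56 and 10.01 in siMM, and 11.17 and 12.87 in siRE, and rose by 2.24 ± 0.28 (SE, limma adjusted p = 0.00625). CTSG, cathepsin G, a serine protease of primary granules, measured 10.71 and 11.13 in siMM, and 12.32 and 13.29 in siRE, and rose by 1.89 ± 0.19 (SE, limma adjusted p = 0.00244). For both genes the lower siRE array still exceeded the higher siMM array. RNASE2, the eosinophil-derived neurotoxin, measured 10.21 and 10.15 in siMM, and 11.68 and 12.57 in siRE, and rose by 1.94 ± 0.26 (SE, limma adjusted p = 0.00942). A probe annotated to RNASE2CP, a near copy of it, rose by 2.03 ± 0.23 (SE, limma adjusted p = 0.0039), and the shared sequence makes it uncertain which gene either probe reads. CST7, cystatin F, an inhibitor of lysosomal cysteine proteases, measured 5.95 and 6.46 in siMM, and 7.14 and 9.17 in siRE, and rose by 1.95 ± 0.31 (SE, limma adjusted p = 0.0201).

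Of 25 genes listed as granule proteins, 18 were tested, and 7 of these rose and 0 fell, beside 0.733% and 0.293% of all genes. Those that rose were PRG2, MS4A3, BPI, SRGN, CST7, RNASE2 and CTSG. MS4A3, a membrane protein, is counted in this list and in its medians. The lists used here and below were chosen with earlier results of these data known. Their shares of called genes beside those of all genes are therefore a description and no test of enrichment. The median difference of the 18 was 0.40 at 48 h and 1.55 at 96 h, beside -0.02 and -0.04 over all 8866 genes. LYZ, lysozyme, measured 8.49 and 7.60 in siMM, and 9.07 and 10.38 in siRE. Its difference of 0.58 at 48 h and 2.78 at 96 h did not pass (limma adjusted p = 0.114), and the control array itself was 0.88 lower at 96 h. AZU1, azurocidin, stood at 0.56 and 1.45 and did not pass either (limma adjusted p = 0.127). Of other primary granule enzymes, named after their values were seen, neutrophil elastase (ELANE) stood at -0.07 and 0.39 and PRTN3, proteinase 3, at 0.00 and 0.41. Myeloperoxidase (MPO) measured 14.20 and 14.06 in siMM, and 14.06 and 13.91 in siRE. These levels lie near the highest value of the table, 14.36, where a difference may not be measurable.

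**Figure D1:**
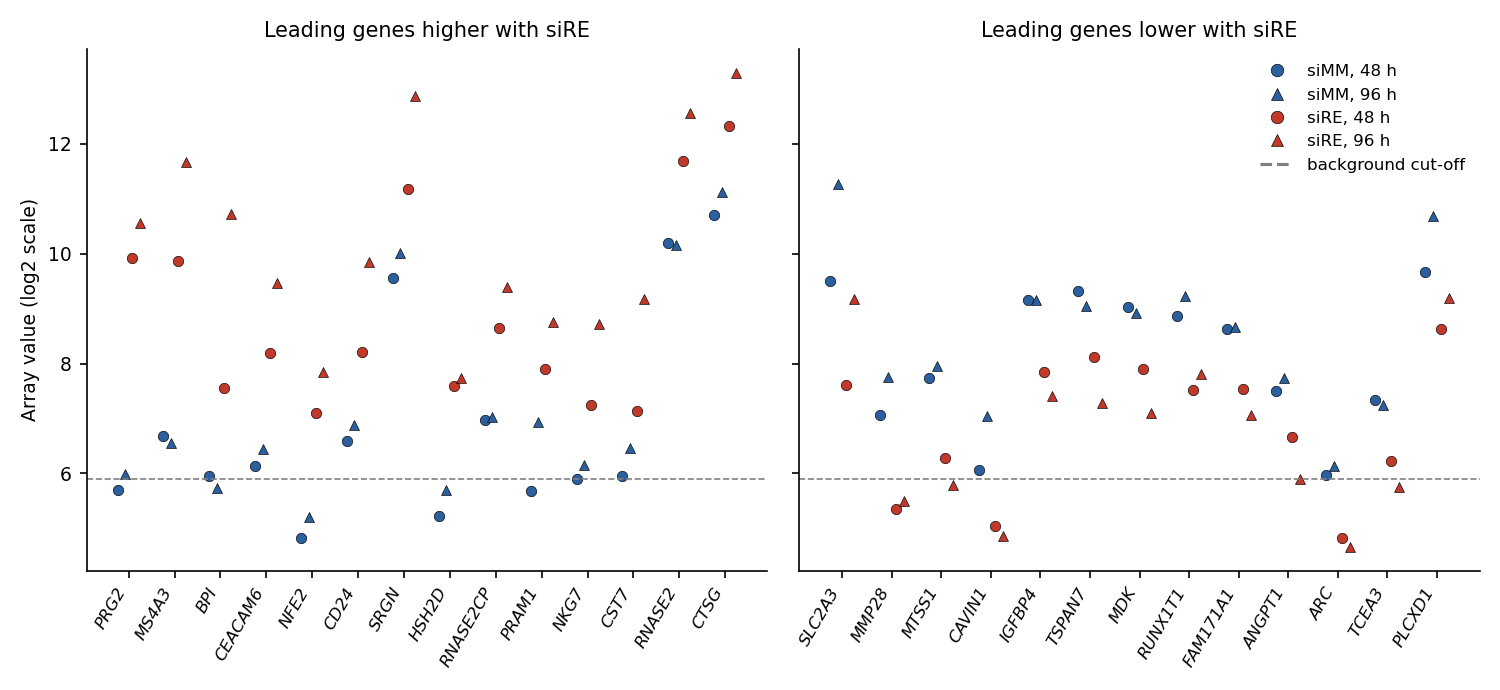
Values of the leading genes on each of the 4 early arrays, on the log2 scale; circles are 48 h, triangles 96 h, blue siMM and red siRE, and the dashed line is the background cut-off of 5.90. In the left panel both siRE symbols of each gene lie above both siMM symbols, and in the right panel both lie below; NFE2 and HSH2D in siMM, and MMP28, CAVIN1 and ARC in siRE, sit under the cut-off on both arrays.

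Genes of myeloid surface and signalling proteins formed the next group. Of 35 maturation markers listed, 22 were tested, and 4 rose and 0 fell (0.733% and 0.293% of all genes), with a median difference of 0.20 at 48 h and 0.58 at 96 h. CEACAM6, a granulocyte adhesion molecule, measured 6.13 and 6.45 in siMM, and 8.19 and 9.47 in siRE, and rose by 2.54 ± 0.23 (SE, limma adjusted p = 0.00144). CD24, a glycolipid-anchored surface protein, measured 6.59 and 6.88 in siMM, and 8.21 and 9.84 in siRE, and rose by 2.29 ± 0.27 (SE, limma adjusted p = 0.00489). In both, each siRE array was above each siMM array and the difference was larger at 96 h. CLEC12A, an inhibitory lectin receptor of myeloid cells, measured 6.25 and 6.06 in siMM, and 7.22 and 8.17 in siRE, and rose by 1.54 (limma adjusted p = 0.0257), with all 3 probes past the test. S100A9, a calcium-binding protein abundant in neutrophils, measured 5.91 and 5.71 in siMM, and 6.90 and 8.05 in siRE, and rose by 1.67 (limma adjusted p = 0.0472). Its partner S100A8 measured 5.46 and 5.42 in siMM, and 5.87 and 6.62 in siRE, which did not pass (limma adjusted p = 0.346). The adaptor TYROBP, which couples myeloid receptors to kinases, stood at 1.15 and 1.58 at the 2 times and missed the threshold as well (limma adjusted p = 0.0991).

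Of 9 chemokines, cytokines and receptors tested, 1 rose, CXCR4, and 1 fell, MDK, beside 0.733% and 0.293% of all genes. CXCR4, the receptor of the chemokine CXCL12, measured 5.48 and 6.40 in siMM, and 6.98 and 8.44 in siRE, and rose by 1.77 (limma adjusted p = 0.0447). HCST, a signalling adaptor also called DAP10, is in none of the lists and is named after its values were seen. It measured 10.34 and 10.85 in siMM, and 11.70 and 12.98 in siRE, and rose by 1.75 (limma adjusted p = 0.0161). Both genes had 2 tested probes and all 4 probes passed. Of 15 signalling kinases tested, 3 rose and 0 fell, beside 0.733% and 0.293% of all genes: PRKCD, protein kinase C delta, which was under the cut-off on both siMM arrays and at least 1.87-fold higher, FGR, a SRC-family kinase that was at least 1.48-fold higher by 1 of its 2 probes, and SYK, at 1.05 (limma adjusted p = 0.0498). The median of that list was -0.11 at 48 h and -0.08 at 96 h. LCP1, the actin-bundling protein L-plastin of blood cells, measured 6.66 and 7.26 in siMM, and 8.72 and 8.88 in siRE, and rose by 1.84 ± 0.19 (SE, limma adjusted p = 0.00244). Of 27 heat shock and oxidative stress genes, 1 rose and 0 fell, beside 0.733% and 0.293% of all genes. CAT, catalase, rose by 1.43 (limma adjusted p = 0.0075), while the median of that list was 0.02 at 48 h and -0.29 at 96 h. Also in no list and named after their values were seen, RAB27A and SYTL1, a small GTPase of granule exocytosis and a protein that binds it, rose by 0.94 and 1.10 (limma adjusted p = 0.041 and 0.0179). The second probe of RAB27A stood at 0.67 (limma adjusted p = 0.164). The gene's call ended with no filter on dim probes, without pairing by time, and with dim values raised to the cut-off. IGFBP7, a secreted growth factor binding protein, rose by 1.63 (limma adjusted p = 0.00942) and MCU, the mitochondrial calcium uniporter, by 1.58 (limma adjusted p = 0.00809). Both IGFBP7 and MCU are likewise in no list and were named after their values were seen.

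HSH2D and PRAM1, adaptor proteins of blood cells, and NKG7, found in the granule membranes of cytotoxic cells, complete the leading genes together with NFE2. HSH2D measured 5.23 and 5.70 in siMM, under the cut-off, and 7.60 and 7.73 in siRE, and was at least 3.41-fold higher (limma adjusted p = 0.00119). PRAM1 measured 5.67 and 6.93 in siMM, and 7.90 and 8.76 in siRE, and rose by 2.03 ± 0.19 (SE, limma adjusted p = 0.00167). NKG7 measured 5.89 and 6.15 in siMM, and 7.25 and 8.72 in siRE, and rose by 1.96 ± 0.31 (SE, limma adjusted p = 0.0193). HSH2D and PRAM1 differed no more at 96 h than at 48 h, whereas the difference of NKG7 went from 1.35 to 2.57. Where a group was under the cut-off on both arrays, as for 15 of the 65 higher and 4 of the 26 lower genes, the bound compares the bright group's mean with the cut-off in place of the dim values.

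Of 19 myeloid and haematopoietic transcription factors tested, 4 rose and 0 fell (0.733% and 0.293% of all genes), with a median of -0.02 at 48 h and 0.27 at 96 h. NFE2, a basic leucine zipper factor, measured 4.82 and 5.21 in siMM, under the cut-off, and 7.09 and 7.84 in siRE, and was at least 2.97-fold higher (limma adjusted p = 0.00119). CEBPE, a factor of late granulocyte development, measured 7.77 and 7.77 in siMM, and 9.60 and 9.51 in siRE, and rose by 1.79 ± 0.17 (SE, limma adjusted p = 0.00178). The control values of CEBPE were equal to 2 decimals, and the difference was no larger at 96 h than at 48 h. IRF8, a factor of monocyte and dendritic cell development, measured 6.29 and 6.92 in siMM, and 8.06 and 8.53 in siRE, and rose by 1.69 ± 0.20 (SE, limma adjusted p = 0.00526). CEBPA, which directs commitment to granulocytes, measured 8.54 and 8.51 in siMM, and 9.61 and 9.31 in siRE, and rose by 0.93 ± 0.18 (SE, limma adjusted p = 0.0451). This call ended with no filter on dim probes, without pairing by time, and with dim values raised to the cut-off. The 3 factors CEBPE, IRF8 and CEBPA each had a smaller difference at 96 h than at 48 h. CEBPD stood at 0.52 and 1.09 and missed the threshold (limma adjusted p = 0.234).

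The RefSeq table of build GRCh38.p14 holds windows at the transcript start of 47 of the 65 higher genes and 12 of the 26 lower genes. The 250 bases before the start are shown for a progenitor gene and a surface gene among the largest rises and for a transcription factor whose rise was as large at 48 h as at 96 h, since the 3 genes were all called higher. Capitals mark matches, on either strand, to the RUNX core TGTGGT, its variant TGCGGT, the AP-1 site TGANTCA or the ETS site AGGAAGT of the PU.1 type; no 2 matches in these windows overlap. MS4A3 lies on the plus strand at chr11:60056415-60056664, CEACAM6 on the plus strand at chr19:41755280-41755529 and CEBPE on the minus strand at chr14:23119256-23119505.
MS4A3: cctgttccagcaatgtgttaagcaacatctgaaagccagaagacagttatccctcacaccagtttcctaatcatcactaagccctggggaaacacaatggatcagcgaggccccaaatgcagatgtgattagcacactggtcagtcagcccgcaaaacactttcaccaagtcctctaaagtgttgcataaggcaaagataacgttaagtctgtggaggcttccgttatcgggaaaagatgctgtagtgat
CEACAM6: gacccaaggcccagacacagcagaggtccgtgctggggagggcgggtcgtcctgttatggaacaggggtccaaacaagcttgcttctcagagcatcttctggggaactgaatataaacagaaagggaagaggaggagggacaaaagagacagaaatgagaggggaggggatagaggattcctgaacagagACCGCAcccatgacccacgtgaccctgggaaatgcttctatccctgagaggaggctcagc
CEBPE: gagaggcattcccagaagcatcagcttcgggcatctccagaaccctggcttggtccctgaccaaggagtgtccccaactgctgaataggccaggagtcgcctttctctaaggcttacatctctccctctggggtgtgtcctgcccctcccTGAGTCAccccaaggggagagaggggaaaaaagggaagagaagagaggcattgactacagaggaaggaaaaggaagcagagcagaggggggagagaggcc

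CEACAM6 holds 1 match to the RUNX core variant on the minus strand, from base -60 relative to the start, and CEBPE 1 match to the AP-1 site, from base -100; the window of MS4A3 holds none of the 4 motifs. Over the 75 windows of the higher genes, TGTGGT was present in 14.7%, beside 10.98% of all 35116 windows, and TGCGGT in 14.7%, beside 5.84%. The AP-1 site was present in 4.0% of these windows, beside 6.57%, and the ETS site in 10.7%, beside 7.01%. Of the 18 windows of the lower genes, 0 held TGTGGT, 2 held TGCGGT, 1 held the AP-1 site and 2 held the ETS site. These are counts of letters in short windows, several of which can belong to 1 gene, and no test was made of them.

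The genes that fell were fewer and more varied in function. SLC2A3, a glucose transporter, measured 9.50 and 11.28 in siMM, and 7.62 and 9.17 in siRE, and fell by 2.0 on the log2 scale (-2.0 ± 0.18, SE, limma adjusted p = 0.00119). The SLC2A3 call ended without pairing by time and with dim values raised to the cut-off. Both arms were higher at 96 h than at 48 h, by 1.78 in siMM, while the gap between them was alike at the 2 times; its near-identical copy SLC2A14 could be read by the same probe. MMP28, a secreted metalloprotease, measured 7.05 and 7.76 in siMM, and 5.36 and 5.50 in siRE, and was at least 2.85-fold lower (limma adjusted p = 0.00194). MTSS1, a scaffold between membranes and actin, measured 7.74 and 7.95 in siMM, and 6.29 and 5.79 in siRE, a change of -1.80 ± 0.24 (SE, limma adjusted p = 0.00809), while its second probe stood at -0.79 (limma adjusted p = 0.0991). CAVIN1, a coat protein of caveolae, measured 6.07 and 7.05 in siMM and was under the cut-off on both siRE arrays, at least 1.58-fold lower (limma adjusted p = 0.0256).

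The leading falls also held IGFBP4, which binds insulin-like growth factors, MDK and ANGPT1. IGFBP4 measured 9.16 and 9.17 in siMM, and 7.84 and 7.41 in siRE, a change of -1.54 ± 0.21 (SE, limma adjusted p = 0.00927). MDK, the growth factor midkine, measured 9.04 and 8.92 in siMM, and 7.91 and 7.10 in siRE, a change of -1.47 ± 0.20 (SE, limma adjusted p = 0.00973). In both genes the 2 control arrays lay close together and both siRE arrays lay more than 1 unit below them. ANGPT1, angiopoietin 1, a ligand of the TIE2 receptor, measured 7.49 and 7.74 in siMM, and 6.66 and 5.90 in siRE, a change of -1.34 ± 0.24 (SE, limma adjusted p = 0.0317). ECM1, an extracellular matrix protein named after its values were seen, changed by -1.20 by 1 probe (limma adjusted p = 0.0317), while its second probe stood at -0.05 at 48 h and -1.22 at 96 h (limma adjusted p = 0.536).

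TSPAN7, a tetraspanin, measured 9.33 and 9.05 in siMM, and 8.12 and 7.29 in siRE, a change of -1.49 ± 0.24 (SE, limma adjusted p = 0.0207). FAM171A1, a membrane protein, measured 8.63 and 8.67 in siMM, and 7.54 and 7.07 in siRE, a change of -1.35 ± 0.25 (SE, limma adjusted p = 0.0372). Both were further below the control at 96 h than at 48 h, while the control changed between the times by -0.28 and 0.04. TCEA3, a transcription elongation factor, changed by -1.30 ± 0.18 (SE, limma adjusted p = 0.0100) and PLCXD1, named for a phospholipase C domain, by -1.27 ± 0.19 (SE, limma adjusted p = 0.0161). ARC, an activity-regulated cytoskeletal protein, was close to the cut-off in siMM and under it in siRE, at least 1.11-fold lower (limma adjusted p = 0.0161).

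Immediate-early genes, which respond within minutes to growth factor signalling, held falls and no rise past the test. Of 20 listed, 11 were tested, and 3 fell and 0 rose, beside 0.293% and 0.733% of all genes; the median was -0.52 at 48 h and -0.75 at 96 h. DUSP6, the phosphatase that switches off ERK, measured 10.71 and 10.69 in siMM, and 9.61 and 9.32 in siRE, a change of -1.23 ± 0.21 (SE, limma adjusted p = 0.0297), while its second probe stood at -0.79 (limma adjusted p = 0.291). JUN, a subunit of AP-1, measured 7.26 and 8.38 in siMM, and 6.38 and 7.44 in siRE, a change of -0.91 (limma adjusted p = 0.043). KLF2, a zinc finger factor, measured 6.90 and 8.87 in siMM, and 6.14 and 7.24 in siRE, a change of -1.19 (limma adjusted p = 0.0451). JUN and KLF2 were the 2 called lower genes whose arms overlapped, with control values higher at 96 h by 1.11 and 1.97, more than the siRNA effect; within each time the siRE array was the lower. EGR1 was likewise higher at 96 h in the control, by 1.42, and its difference of -0.94 did not pass (limma adjusted p = 0.107). MYC, named after its values were seen, stood at 0.24 and 0.08.

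**Figure D2:**
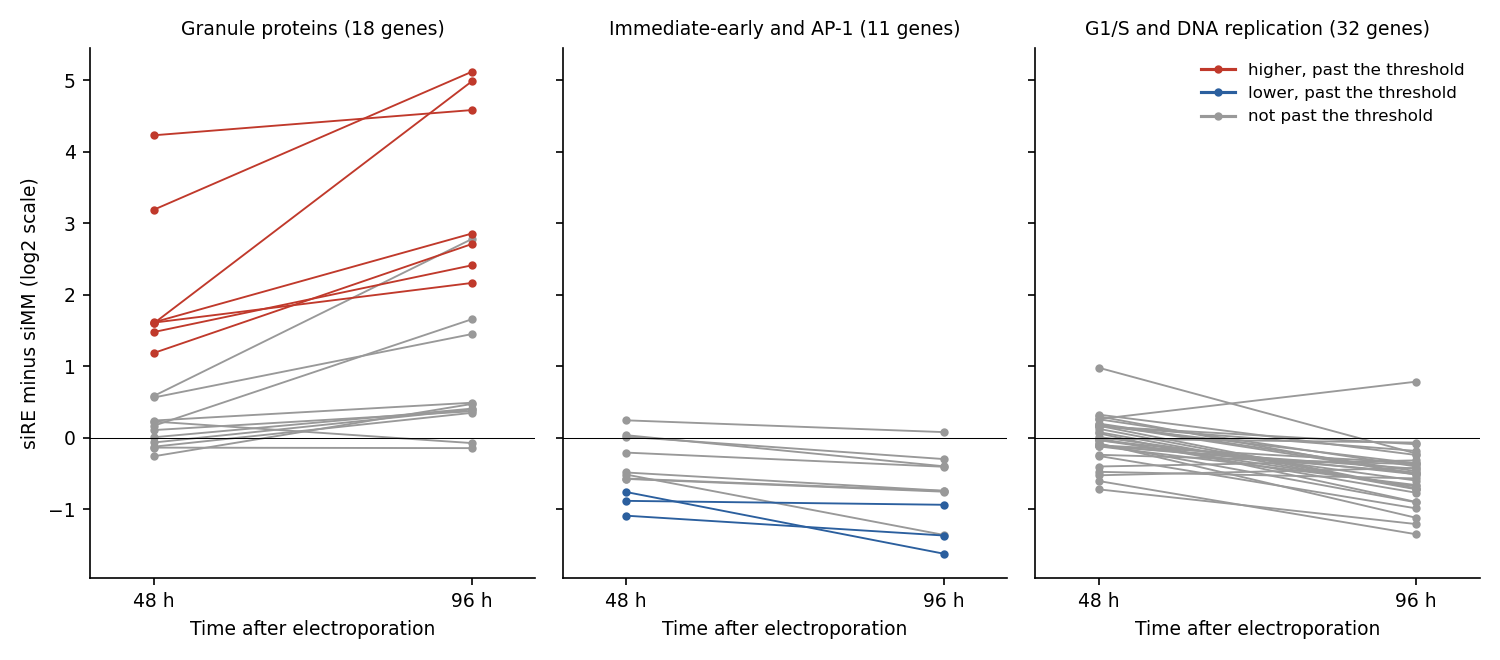
Difference siRE minus siMM on the log2 scale at 48 h and 96 h for the tested genes of 3 lists; each line is a gene, red and blue lines passed the test of the early effect and grey lines did not. The granule panel, which includes the membrane protein gene MS4A3, holds 7 red lines that reach 2.16 to 5.12 at 96 h. The immediate-early panel holds 3 blue lines. In the G1/S panel no gene passed and 31 of 32 lie below 0 at 96 h. The lists were chosen with earlier results of these data known.

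Stem and progenitor genes moved in both directions. Of 24 listed, 13 were tested, and 1 rose and 2 fell (0.733% and 0.293% of all genes), with a median of -0.14 at 48 h and -0.65 at 96 h. The gene that rose was CD82, a tetraspanin, which measured 6.89 and 7.13 in siMM, and 8.29 and 8.82 in siRE, by 1.55 ± 0.18 (SE, limma adjusted p = 0.00439). The genes that fell were ANGPT1 and BAALC, known from immature blasts, which measured 8.06 and 7.61 in siMM, and 6.99 and 6.72 in siRE, a change of -0.98 (limma adjusted p = 0.0347), while its second probe stood at -0.70 (limma adjusted p = 0.182). CD34, the surface marker of progenitors, measured 11.37 and 11.57 in siMM, and 10.99 and 10.24 in siRE. Its difference went from -0.38 at 48 h to -1.33 at 96 h and did not pass early (limma adjusted p = 0.219). Among 10 tested genes reported high in t(8;21) leukaemia, 0 rose and 2 fell, beside 0.733% and 0.293% of all genes: UBASH3B, a tyrosine phosphatase, by 1.01 on the log2 scale (-1.01, limma adjusted p = 0.0442), and JUP, plakoglobin, at -0.88 (limma adjusted p = 0.0499). The second probe of UBASH3B stood at -0.77 (limma adjusted p = 0.109), and the other 2 of JUP at -0.35 and -0.45 (limma adjusted p = 0.634 and 0.621). Another 3 genes of that list lay just short of the threshold in both directions. SLC45A3, a membrane transporter, stood at -0.77 and -1.60 (limma adjusted p = 0.0549), and OGG1, a DNA repair glycosylase, at 1.08 and 0.80 (limma adjusted p = 0.0567). LAT2, a membrane adaptor protein, was under the cut-off on both siMM arrays and measured 5.93 and 6.01 in siRE (limma adjusted p = 0.0601). The calls of JUN and JUP ended with no filter on dim probes, without pairing by time, and with dim values raised to the cut-off.

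Cell cycle and ribosome biogenesis genes held no call at the early times but stood lower at 96 h than at 48 h. Of 32 G1/S and replication genes tested, 0 passed; the median was -0.01 at 48 h and -0.51 at 96 h, and the number below 0 went from 17 to 31. Of 31 G2/M genes, 0 passed, with medians of 0.05 and -0.43, and the number below 0 went from 15 to 31. Over all genes the share below 0 was 52.5% at 48 h and 54.9% at 96 h. Of 24 genes of ribosome biogenesis, 0 passed, with medians of -0.02 and -0.36. The largest of these differences were those of POLE, a DNA polymerase subunit, at -0.61 and -1.35 (limma adjusted p = 0.0732), and CCND1, cyclin D1, at -0.72 and -1.21 (limma adjusted p = 0.0809). Within siMM the medians of the 3 lists also moved between the times, by -0.13, -0.20 and -0.27, and within siRE by -0.68, -0.67 and -0.56. With 1 array against 1 at each time, the change of the difference between 48 and 96 h has no test.

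Lysosome genes were mostly above 0, with 17 of 22 at 48 h and 19 at 96 h. Of the 22, 1 rose past the test and 0 fell, beside 0.733% and 0.293% of all genes. That gene was LAPTM5, a membrane protein of lysosomes in blood cells, which measured 8.07 and 8.57 in siMM, and 9.04 and 10.02 in siRE, a rise of 1.21 (limma adjusted p = 0.0347). CTSD, cathepsin D, stood at 0.54 and 1.22 (limma adjusted p = 0.112) and LAMP2 at -0.04 and 1.32 (limma adjusted p = 0.536). Of 9 phagocyte oxidase and leukotriene genes, 1 rose and 0 fell, beside 0.733% and 0.293% of all genes. LTC4S, leukotriene C4 synthase, measured 4.80 and 4.65 in siMM, and 5.64 and 6.79 in siRE. Only its 96 h siRE array exceeded the cut-off, and it was at least 1.25-fold higher (limma adjusted p = 0.04). Of 12 apoptosis regulators, 1 rose and 0 fell, beside the same shares of all genes. TNFSF10, the death ligand TRAIL, measured 5.58 and 5.47 in siMM, and 6.96 and 7.11 in siRE. It was at least 2.20-fold higher (limma adjusted p = 0.00526).

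Adhesion and cytoskeleton genes divided between the directions, with 2 higher (LCP1 and LGALS1) and 3 lower (MTSS1, TSPAN7 and CD53) of 24 tested, beside 0.733% and 0.293% of all genes. LGALS1, the lectin galectin-1, measured 6.08 and 6.72 in siMM, and 7.39 and 9.04 in siRE, a rise of 1.81 ± 0.27 (SE, limma adjusted p = 0.0161). CD53, a leukocyte tetraspanin, measured 7.01 and 7.0 in siMM, and 6.08 and 5.87 in siRE, a change of -1.03 (limma adjusted p = 0.0299). The 2 tetraspanins that fell, TSPAN7 and CD53, and CD82, which rose, each had 2 tested probes, and both probes of each gene passed. Among the 28 called genes with at least 2 tested probes, every probe passed in 14. In the other 14 the remaining probes had the same sign, apart from RUNX1T1.

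Several lists gave no early call. None of 14 interferon-induced and RNA-sensing genes, 10 genes of the RNA interference machinery, 45 cytosolic ribosomal proteins, 29 genes of oxidative phosphorylation, 14 CDK inhibitors and p53 targets, 19 genes of endoplasmic reticulum and amino acid stress, 15 chromatin regulators or 4 MHC class II genes passed. Their medians lay between -0.10 and 0.12 at 48 and 96 h, apart from the interferon genes at -0.15, the chromatin regulators at -0.29, oxidative phosphorylation at -0.16 and MHC class II at -0.28, all at 96 h. Of 25 glycolysis and hypoxia genes, 1 fell, SLC2A3, and 0 rose, beside 0.293% and 0.733% of all genes. Their median siRE minus siMM difference was -0.04 at 48 h and -0.21 at 96 h, with 13 and 20 genes below 0. Of 18 cholesterol synthesis genes 0 passed, with medians of 0.14 and -0.26 and 4 and 12 genes below 0. Glycolysis and cholesterol genes also differed between the times in the control itself. At 96 h the median of 25 glycolysis and hypoxia genes was higher than at 48 h by 0.80 in siMM and 0.61 in siRE, and that of 18 cholesterol synthesis genes by 0.50 in siMM and 0.11 in siRE, with no test. HMGCS1, an early enzyme of cholesterol synthesis, measured 8.39 and 10.47 in siMM, and 9.02 and 9.45 in siRE. It lay above the control at 48 h, by 0.63, and below it at 96 h, at -1.02, with siMM 2.08 higher at 96 h than at 48 h.

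**Figure D3:**
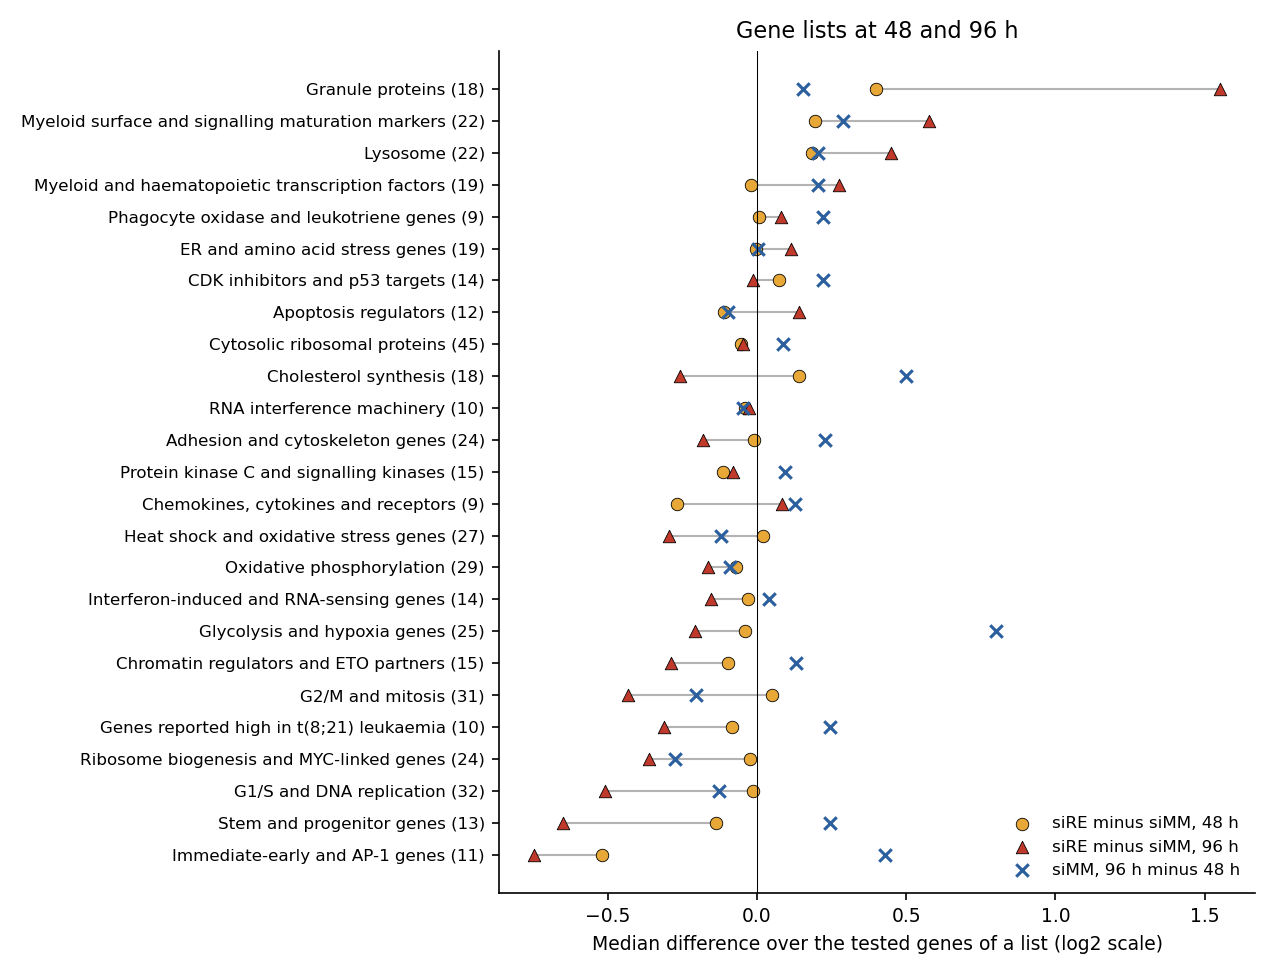
Median difference of each list with at least 9 tested genes, in log2 units, with the number of tested genes in parentheses: siRE minus siMM at 48 h (orange circles) and 96 h (red triangles), and siMM at 96 h minus 48 h (blue crosses). Granule proteins lie furthest right at 0.40 and 1.55, immediate-early genes furthest left at -0.52 and -0.75, and the control moved by 0.80 for glycolysis and hypoxia genes. The lists were chosen with earlier results of these data known.

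Markers of other cell types were mostly not above background. Tested were 2 of 15 erythroid, 2 of 10 megakaryocyte and platelet, 3 of 9 mast cell and basophil, 3 of 15 T and NK cell, 2 of 9 B cell and 1 of 11 fibroblast and epithelial markers. The only one of these to pass was NKG7, and the other tested T and NK markers, CD2 and CD247, stood at -0.23 and 0.02. The summed linear level of the 3 mast cell and basophil markers was 279.6 and 375.5 in siMM and 273.5 and 255.9 in siRE at 48 and 96 h, and that of the 2 erythroid markers 5905 and 6493 in siMM and 6028 and 3955 in siRE. For the 3 T and NK cell markers, which include NKG7, it was 242.2 and 220.3 in siMM and 340.0 and 561.2 in siRE. The part of such cells in any result was not tested. EPCAM, an epithelial adhesion molecule, was bright on all 4 early arrays, at 11.45 and 11.27 in siMM, and 11.40 and 11.38 in siRE, which differed by 0.03 (limma adjusted p = 0.984).

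The next question was how the response developed between 48 and 96 h. Across the 14707 tested probes, which are no independent replicates of each other, differences at the 2 times, from arrays that share no sample, correlated with Pearson's r of 0.391 and a Spearman coefficient of 0.230. Their SD was 0.301 at 48 h and 0.393 at 96 h, and 57.1% had the same sign. Among the 65 higher genes the median difference was 1.22 at 48 h and 1.64 at 96 h, and among the 26 lower genes -1.10 and -1.49. Of the higher genes, 45 differed more at 96 h, and of the lower genes 23. In 38 of the higher and 20 of the lower genes the 2 differences were within 1.5 times of each other. In 26 and 6 the 96 h difference was over 1.5 times that at 48 h, and in 1, RFLNB, the 48 h difference was. The level class held the transcription factors NFE2, CEBPE, IRF8 and CEBPA, the granule genes PRG2 and CTSG, the surface gene CEACAM6, and RNASE2CP. The growing class held MS4A3, BPI, CST7, RNASE2, SRGN, CD24, CLEC12A and S100A9, so granule and surface genes were in both. These classes come from single arrays and have no test.

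Genes whose difference changed most between the times included members of the granule list and genes whose control values moved as well. BPI, LYZ and MS4A3 grew by 3.38, 2.19 and 1.93. The probes annotated to MIR877 and OR2A20P went from -1.04 and -0.57 to 1.31 and 1.62, with early values between 5.28 and 6.72 and between 5.98 and 7.60. In the other direction, TUBB2B, a beta-tubulin, went from 1.48 to -0.97, with all 4 early arrays under the cut-off, and NUP210, a nuclear pore protein, from 0.68 to -0.71. HMGCS1, NUMA1, a spindle protein, CDK14, a cyclin-dependent kinase, and MSMO1, a cholesterol synthesis enzyme, changed by -1.65, -1.56, -1.49 and -1.45. In these 4 genes siMM was higher at 96 h than at 48 h. The siRE values went from 9.02 to 9.45 in HMGCS1 and from 7.55 to 6.92 in NUMA1. They went from 5.93 to 5.33 in CDK14 and from 8.45 to 8.44 in MSMO1. Which arm accounts for a change was not tested.

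**Figure D4:**
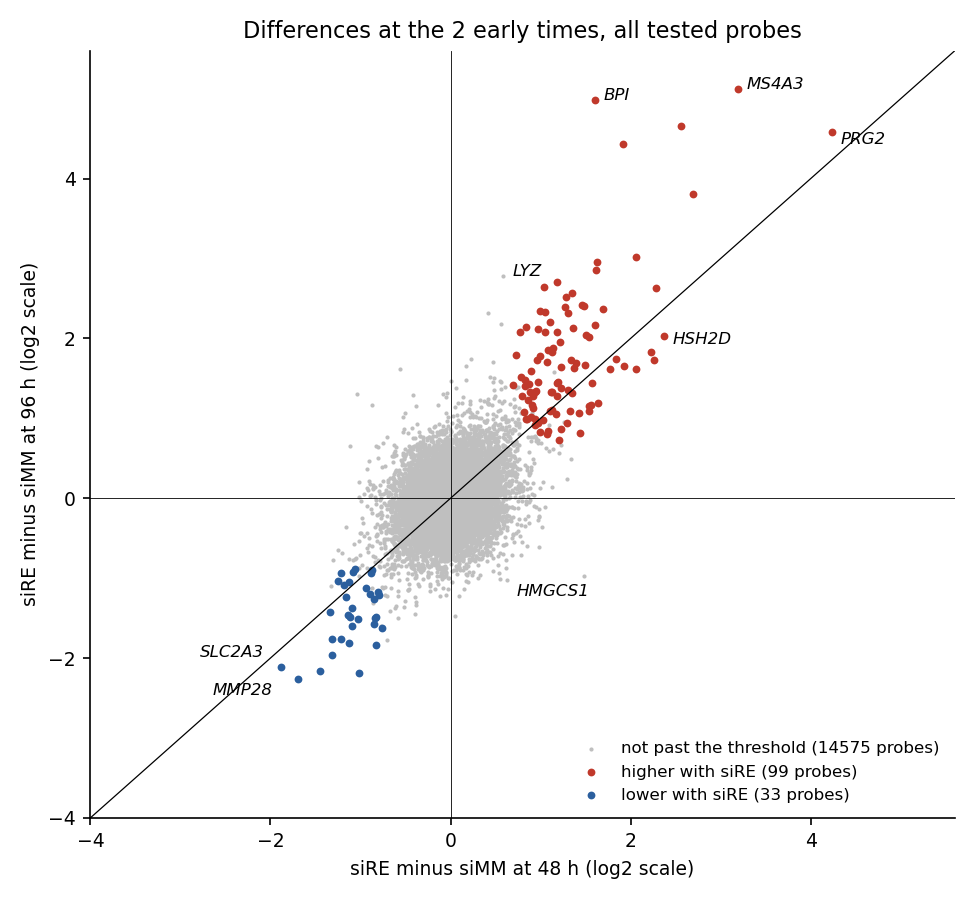
Difference siRE minus siMM at 48 h (x axis) against 96 h (y axis) for the 14707 tested probes, in log2 units, with the line of equal differences; red probes were higher and blue probes lower past the test, and grey probes did not pass. The 99 red and 33 blue probes lie in the quadrants of 1 direction, most red probes above the line, with BPI far above it and PRG2 near it.

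The last comparison set the early effect against the effect at 168 and 240 h in the same cells. The effects come from different arrays, but both tests use the same fit and the same spread for each probe. Calls in the early and late periods are therefore not independent of each other. All 65 higher genes were above the control at both late times, where 31.2% of all genes were, and all 26 lower genes below it at both, where 39.95% of all genes were. Of the higher genes, 62 also passed the test of the late effect in the same direction, and 25 of the lower genes did, where 5.87% of all genes passed as higher and 7.31% as lower. Over all tested probes the early and late effects correlated with Pearson's r of 0.616 and a Spearman coefficient of 0.434. The median effect of the higher genes was 1.43 early and 1.92 late, and that of the lower genes -1.29 early and -1.89 late. The 4 genes called early but not late were LGALS1 (1.81 early and 0.61 late), ELMOD3 (1.33 and 0.47), ARHGEF10 (0.96 and 0.53) and IGFBP4 (-1.54 and -0.58), and the difference between their effects was not past its own test.

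A test of the difference itself was passed by 1 of 14707 probes (0.0068%; 1596 at an unadjusted p under 0.05, limma), that of SLC2A3, whose effect was -2.0 early and -5.03 late. FCER1G, a signalling chain of Fc receptors, and S100A8 came next (limma adjusted p = 0.0572 and 0.0568 for the difference). The late effects were 4.25 and 4.01, and the early effect of FCER1G was 0.40. S100A8 was under the cut-off on both early siMM arrays, so its early difference, which did not pass, has only a bound of at least 1.27-fold. For CST7, NKG7, S100A9 and RETN, the secreted protein resistin, the early minus late difference did not pass either (limma adjusted p between 0.118 and 0.164), and RETN was under the cut-off on both early siMM arrays. In 14 of the 65 higher genes the early estimate was the larger, among them PRG2, NFE2, CEBPE, CEBPA, TNFSF10 and CAT, and in 3 of the 26 lower genes, IGFBP4, RUNX1T1 and TRIM8. None of these genes passed the test of the difference, so the count orders point estimates only. The RUNX1T1 effect itself was -1.38 in both periods.

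**Figure D5:**
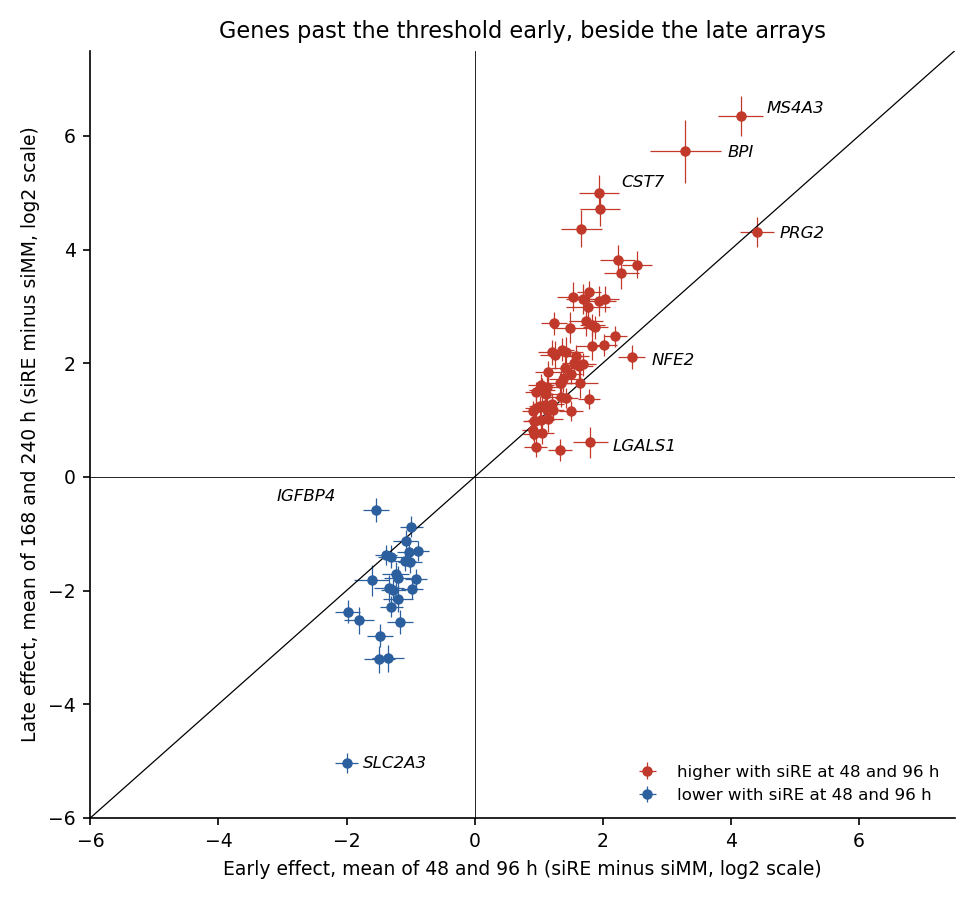
Early effect (x axis, mean of 48 and 96 h) against late effect (y axis, mean of 168 and 240 h) of the genes past the early test, siRE minus siMM in log2 units; points are limma estimates, bars their standard errors, and the diagonal marks equal effects. The points lie in the quadrants of 1 direction; SLC2A3 sits far below the line at -2.0 and -5.03, MS4A3 and CST7 above it, and LGALS1 and IGFBP4 nearer to 0 late than early.

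Probes without a single named gene made up 16 of the 132 called probes, 13 higher and 3 lower. ILMN_2113126 measured 6.67 and 6.92 in siMM, and 9.36 and 10.73 in siRE, and rose by 3.25 ± 0.28 (SE, limma adjusted p = 0.00119). ILMN_3247633 was under the cut-off on both siMM arrays, at 5.24 and 5.81, and measured 7.16 and 10.25 in siRE (limma adjusted p = 0.0100). ILMN_2317581 and ILMN_2317580 changed by -1.06 and -1.05 (limma adjusted p = 0.0304 and 0.0442).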

How the data were processed

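Per the labels' protocols, biotin-labelled cRNA of Kasumi-1 cells was hybridised to Illumina bead arrays; the 4 arrays of 48 and 96 h, of 8 in all, are described here. The values are the authors' deposited processed table on a log scale, treated as log2 because they range from 3.89 to 14.36; the authors used lumi, per the submitters' processing notes, and the sources used here state neither its version nor the background handling and transformation. Sorted values differed between arrays by at most 0.0235, so they were used without more normalization, and a change common to most transcripts cannot be seen in them. The values were not centred per probe. A table of non-normalized values with 16 columns was left out, since nothing links its columns to the samples.

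The background cut-off of 5.90 lies above the mode of all values, 5.22, by the 90th percentile of how far lower values lie from it (density bandwidth 0.05). Probes above it on at least 2 of 8 arrays were tested with limma 3.58.1 (lmFit and eBayes, R 4.3.3), with time as a factor of 4 levels and a siRNA effect for the early and the late pairs, 2 residual and 8.08 prior degrees of freedom, and Benjamini-Hochberg adjustment over all tested probes at 0.05. Differences at single times have no test; an exact permutation test of 2 against 2 arrays could not go below 0.333, its smallest p. The labels pair the arrays by time: deviations of same-time arrays from their arm means correlated at 0.373, 0.291, 0.211 and 0.0716 at 48, 96, 168 and 240 h, the last below 0.1.

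The platform annotation gave 1 symbol for 30112 probes, several for 8 and none for 17110; 30073 were matched by Entrez number to RefSeq (GRCh38.p14), which changed 0 symbols. No single gene was named for 3168 tested probes. A gene is its tested probe with the highest mean over the 4 early arrays. A bound ("at least") is given where an arm was under the cut-off on both arrays. The text names the 14 largest rises and the 14 largest falls past the threshold, of which 1 fall is not reported here, up to 5 members per list, the 6 largest early minus late differences and the 6 largest changes between 48 and 96 h each way, of which 1 is not reported here either. The 33 lists hold 744 genes, of which 507 were tested. Members and lists were chosen with earlier results of these data known. Each sample title carries a letter whose meaning is not stated; all siMM letters precede the siRE letters, so a batch they might mark cannot be told apart from the siRNA. Alternatives were the samples in the fit, the pairing, the filter on dim probes, a floor at the cut-off, the variance prior, cyclic loess, the fold threshold, the probe per gene and each pair left out.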

Additional observations from a re-analysis of the deposited data

Results flagged for a closer look

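SLC2A3 is listed because its siRNA effect differed between the early and the late arrays by the test of the difference itself. The early minus late difference was 3.03 (limma adjusted p = 0.00367): siRE minus siMM was -1.88 at 48 h, -2.11 at 96 h, -5.12 at 168 h and -4.94 at 240 h. It was lower with siRE at all 4 times. The near-identical copy SLC2A14 may share its probe. No group held 4 or more arrays of 1 kind within a period, so no array could be tested as standing apart from its group.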

How the results depend on the processing

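Of the 91 genes past the threshold, 0 reversed direction in any setting, but most settings could not have shown a reversal. The mean of the 2 early differences stays the same when the pairing, the filter on dim probes, the prior or the late arrays change. With an early pair left out, the other early difference remains, and it had the same sign in each called gene. Values that changed have causes that were not tested, apart from the loss of a pair, which leaves fewer arrays. PRG2 kept its call in all settings where it was tested. Among the leading genes, ANGPT1, BPI, CST7, FAM171A1, IGFBP4, NKG7, PLCXD1, SLC2A3 and TSPAN7 lost their call without pairing by time. Against 99 probes higher and 33 lower, the counts were 193 and 105 with the 4 early arrays alone, 39 and 10 without pairing by time (no replicate block, where 35 of the 91 genes kept their call), 5 and 0 with dim values raised to the cut-off (5 kept; the prior degrees of freedom then fell to 4.04), and 194 and 99 with a robust prior that follows intensity (90 kept). With a pair of arrays left out they ranged from 2 to 193 and from 0 to 105. With no filter 84 genes kept their call and with cyclic loess, which moved the median of all genes by 0.00974, all 91 did.

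The early minus late difference was passed by 1 probe; by 0 without the pairing block and 0 with dim values raised to the cut-off, by 17 with no filter, by 10 with probes above background on all 4 early arrays, by 108 with the robust prior, by 3 with cyclic loess, and by 0 to 278 with a pair left out. RUNX1T1 stood at -1.38 with an adjusted p = 0.0516 (limma) with dim values raised to it, and between -1.43 and -1.34 with a pair left out, where an adjusted p = 0.138 and 0.482 (limma) resulted without the 48 h or the 96 h pair. At least 1.5-fold at both times gave 189 probes higher and 110 lower, and probes above background on all 4 early arrays gave 37 at least 2-fold higher. Background correction from the non-normalized table was not run, because its columns have no known samples. Signal near background limits the values of dim probes.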
